A study of Mus musculus with 15 samples.

Results

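The genes described here encode the proteins of the mitochondrial ribosome (symbols beginning with Mrpl for the large subunit and Mrps for the small one) and the machinery that brings proteins into mitochondria (Tomm for the outer membrane, Timm for the inner membrane and the space between). They were all the probe sets that the platform annotation pairs with a single symbol beginning with one of those 4 stems and a digit. The 95 such probe sets stood for 78 genes of the 8251 on the array, and the probe set with the highest mean intensity was used for each. The 78 were 40 Mrpl, 21 Mrps, 12 Timm and 5 Tomm genes. After the 40% of genes with the lowest mean over all arrays were left out, 68 of the 78 were tested, among 4950 genes in all.

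The study deleted MAT1 (Mnat1), a subunit of the kinase module of the transcription factor TFIIH, from mouse heart muscle cells and measured whole-heart RNA on 15 one-colour arrays. The hearts were cardiac knockouts (CKO, αMHC-Cre+/0; MAT1F/F) at 4 weeks of age (5 arrays) and 2 weeks of age (4 arrays), and littermate controls (αMHC-Cre+/0; MAT1F/+) at 4 weeks (3 arrays) and 2 weeks (3 arrays). Both genotypes carry the Cre transgene, and controls keep a wild-type allele. The α-myosin heavy chain promoter drives Cre in heart muscle cells, so the other cells of the organ keep the gene. The labels do not say whether the hearts of a group were taken from different mice. The p-values rest on the spread between arrays, part of which may be technical.

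Mitochondria translate the few proteins encoded by their own genome, all of them subunits of the respiratory chain and ATP synthase, on a ribosome whose proteins are encoded in the nucleus. Those ribosomal proteins, like most other mitochondrial proteins, are made in the cytosol, recognised at the outer membrane by Tomm receptors, passed through the Tomm40 channel, and sorted by the TIM23 and TIM22 complexes of the inner membrane. Heart muscle is rich in mitochondria and depends on them for ATP.

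The values are deposited linear intensities with array medians of 173.7 to 216.8. The arrays fell into 2 sets by their correlation over all probe sets (at least 0.937 within a set and at most 0.924 between sets), which the labels do not name. Set 1 held 6 arrays (CKO replicates 1 and 2 and control replicate 1 at 4 weeks, CKO replicates 3 and 4 and control replicate 3 at 2 weeks) and set 2 the other 9, so every group spanned both. The members moved strongly with array set: 61 of 68 were lower in set 1 once the groups were accounted for, 57.4% by more than 0.5 on the log2 scale, against 21.3% of all tested genes, and their median difference (set 1 minus set 2) was -0.56, against 0.0019 for all tested genes. The medians were -0.63 for Mrpl, -0.63 for Mrps, -0.29 for Timm and -0.19 for Tomm. With array set as a block, the median standard error of the members at 4 weeks was 0.110, against 0.259 without it. The sets were drawn from these same intensities but entered the fit as if known beforehand, so p-values with the block may be too small. Counts below are therefore given without the block, which was the analysis chosen for the report, and with it, and each value of a gene names its fit where array set was a block.

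The 9 heart muscle markers used (of 10 listed) summed to 60871 to 65286 in CKO hearts at 4 weeks, against 74014 to 78834 in control hearts, and the 8 fibroblast markers (of 8) to 24246 to 32492 in CKO hearts, against 10964 to 12844 in control hearts. These sums did not overlap, with 5 of the 9 muscle markers lower and 8 of the 8 fibroblast markers higher in CKO hearts (limma, without the block). Nor did the sums of the 6 smooth muscle and pericyte markers (5448 to 8946 in CKO hearts, against 3854 to 4569). Of these 6, Acta2 (mean 3646 in CKO hearts, against 1779) and Cnn1 (878, against 306) were higher (limma, without the block). Tagln, Rgs5 and Pdgfrb did not pass, nor did Myh11, whose mean was lower (301.5, against 370.4). The sums of 7 endothelial (5869 to 8179 in CKO hearts, against 5088 to 6857) and 7 macrophage markers (1631 to 3483 in CKO hearts, against 1508 to 2622) overlapped. So did those of 5 lymphocyte (1072 to 1710, against 912 to 1399), 4 erythroid (7821 to 14012, against 6609 to 7864) and 2 adipocyte markers (204 to 297, against 204 to 335). Of the endothelial markers, Eng alone was higher (mean 2432 in CKO hearts, against 1652, limma, without the block). The means of Kdr, Tek and Tie1 were lower in CKO hearts without passing. No marker of any list was at the floor value on an array. The part of these shifts in the results below was not tested, and in whole-heart RNA fewer muscle cells and less RNA per muscle cell cannot be told apart. Mnat1 itself read 300.3, 314, 148, 141 and 149 in the CKO hearts at 4 weeks, against 244, 106 and 86.0 in the control hearts, on its brighter probe set. At 2 weeks that probe set read 73.1, 111, 296 and 249 in CKO hearts, against 87.9, 120 and 255 in control hearts. Its dimmer probe set lay between 23.7 and 86.2 on all 15 arrays. The brighter probe set followed array set, with 244 to 314 on the arrays of set 1 and 73.1 to 149 on those of set 2. Within each set it was higher in CKO hearts than in control hearts at 4 weeks. Neither probe set was lower in CKO hearts than in control hearts at 4 weeks across all arrays. Since the position of these probes relative to the deleted part is not given, they do not check the labels.

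At 4 weeks, 3 of the 68 tested members passed the test without the block (limma, adjusted p under 0.05 over all 4950 genes): Timm17b was higher in CKO hearts, and Mrpl9 and Mrpl18 were lower. That is 4.41% of the members, against 11.2% of all genes tested (6.59% higher and 4.61% lower). Differences are in log2(intensity + 16), which understates the change of dim genes. The members' median difference was -0.13, with 46 of 68 negative, against a median of 0.08 over all genes, of which 39.2% were negative. That median moved with single arrays: it was -0.31 without control replicate 1, 0.006 without control replicate 3, -0.056 without CKO replicate 1 and -0.086 without CKO replicate 2 of 4 weeks. It was -0.22 after quantile normalization and -0.22 after median scaling, where the median of all genes was -0.0046 and 0.0040. With array set as a block it was -0.11, and -0.057 without control replicate 3. The groups did not overlap for Timm17b, which was higher, nor for Mrpl9, Mrpl18 and Mrpl44, which were lower. Such separation was seen for 10.8% of all genes in the higher and 6.57% in the lower direction. The calls depended on single arrays: 0 members passed without control replicate 2 or without control replicate 3 of 4 weeks, and 5 without control replicate 1. Without CKO replicate 3 or 4 of 4 weeks 1 passed.

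With array set as a block, 24 of 68 members passed (35.3%, against 35.5% of all genes), so the share of members that changed was that of the array as a whole. Their split was 7 higher and 17 lower, that is 10.3% of the members higher, against 23.2% of all genes, and 25.0% lower, against 12.2%. After quantile normalization with the same block, 28 members passed (41.2%, against 35.1% of all genes), 5 higher and 23 lower (7.35% and 33.8%, against 17.8% and 17.3%). All 24 had the same sign within each array set, and 18 of them passed whichever of the 15 arrays was left out. Since the 24 were picked by a fit over both sets and the same arrays, such agreement, here and below, is no separate support for them. Mrpl44 was the least steady, passing in 3 of those 15 repeats, and Mrpl13, Mrpl21, Mrpl42, Mrps7 and Mrps21 passed in 12 to 14.

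**Figure D1:**
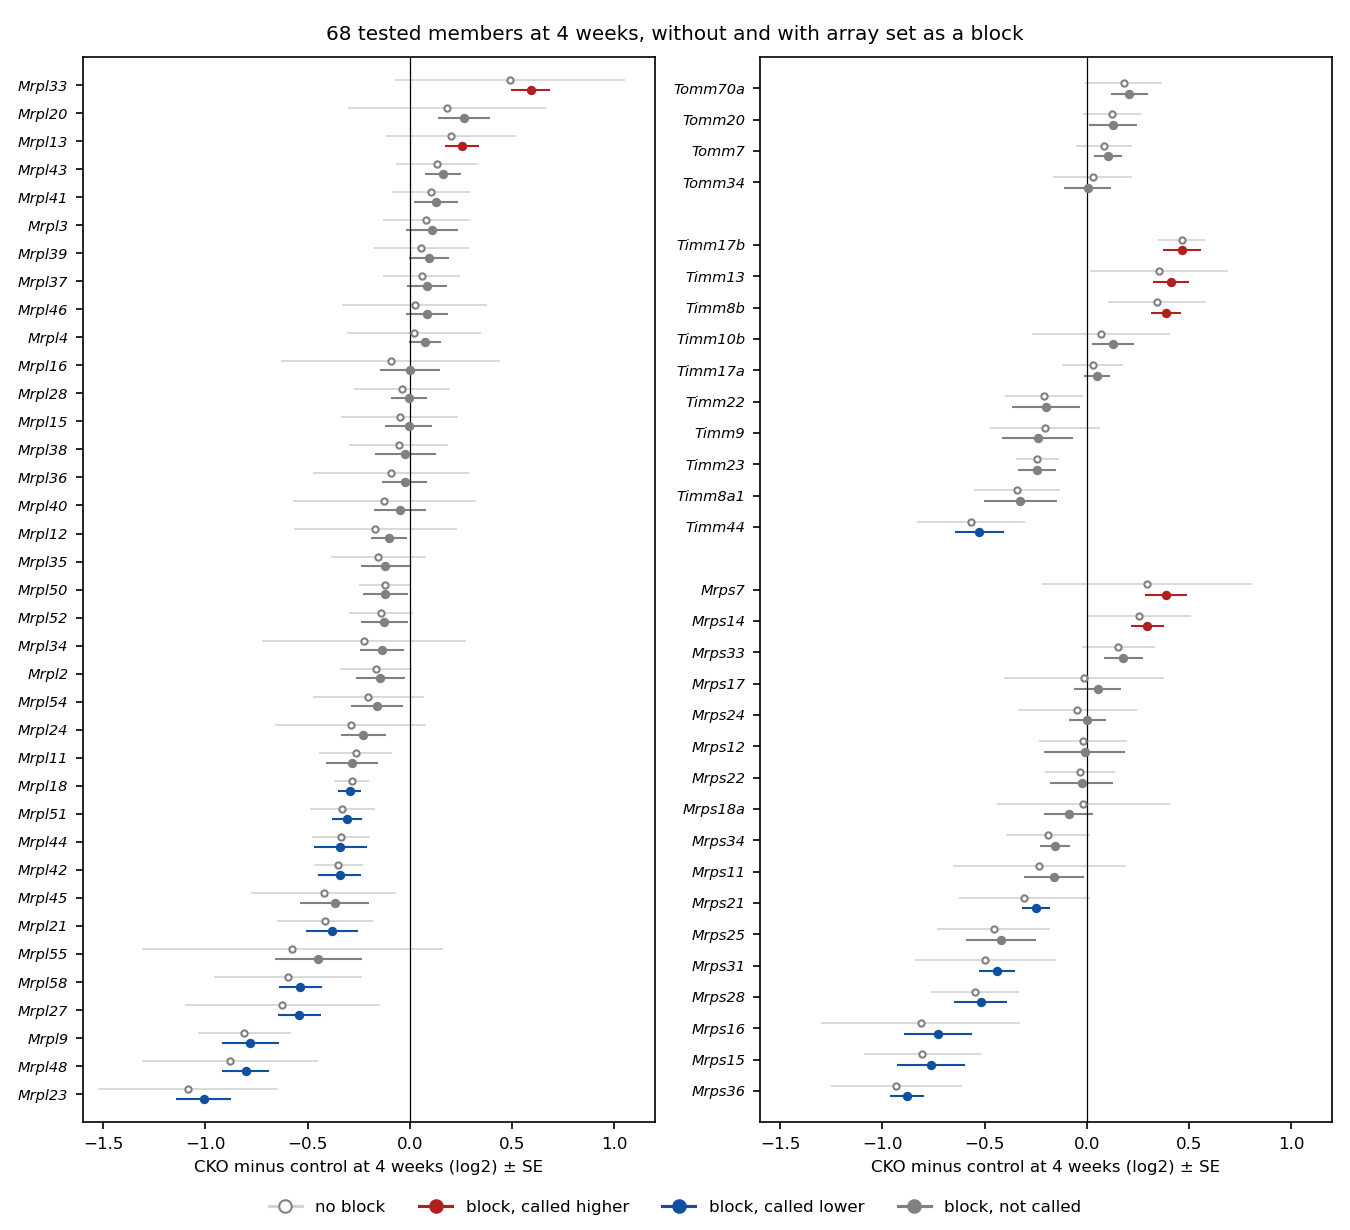
Difference between CKO and control hearts at 4 weeks in log2(intensity + 16) (horizontal axis, with bars for the standard error) for each of the 68 tested members, Mrpl at left and Tomm, Timm and Mrps at right. Open points come from the fit without a block and filled points from the fit with array set as a block, red where higher and blue where lower at an adjusted p under 0.05. The 17 blue points reach down to Mrpl23 at -1.01, the 7 red ones up to Mrpl33 at 0.59, and no Tomm gene is coloured.

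Among the import genes, the TIM23 complex, which takes proteins with a cleavable presequence into or across the inner membrane, held the members furthest apart. Timm17b, which with Timm23 forms the membrane core of that complex, read 753, 698, 808, 745 and 883 in CKO hearts at 4 weeks, against 556, 564 and 553 in control hearts. Every CKO heart was above every control heart, and the set of an array made little difference. The means were 777 ± 70.6 (SD, n = 5) in CKO hearts and 557 ± 5.54 (SD, n = 3) in control hearts, a difference of 0.46 ± 0.12 (SE) on the log2 scale or 1.38-fold (limma, adjusted p = 0.0189). It was 0.52 within set 2 and 0.37 within set 1. The call was lost after quantile normalization (0.37, adjusted p = 0.0508) and after scaling the arrays to a common median (0.38, adjusted p = 0.152), and kept with the block (adjusted p = 0.00105). It was also lost without control replicate 2 (0.47, adjusted p = 0.0689) or 3 (0.46, adjusted p = 0.0684) of 4 weeks. Timm17b lies on the X chromosome, and by Xist against Uty 4 of the 5 CKO hearts and 1 of the 3 control hearts at 4 weeks were female. The male CKO heart had the highest value, 883, and with array set and sex as blocks the difference was 0.49 (adjusted p = 0.00184).

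Its paralogue Timm17a, which takes the same place in the complex, read 1919.5, 2183, 2595, 2416 and 2655 in CKO hearts, against 1934, 2464 and 2525 in control hearts. The groups overlapped, with a difference of 0.028 ± 0.15 (SE, adjusted p = 0.962, limma) that turned to -0.072 after quantile normalization and -0.055 after median scaling. Timm23, the channel protein, read 3075, 2906, 3093, 2570.0 and 2357 in CKO hearts, against 2978, 3384 and 3546 in control hearts. Its low values were in CKO replicates 4 and 5, and the difference of -0.24 ± 0.10 (SE) did not pass either test (adjusted p = 0.168 without and 0.0505 with the block, limma), being -0.38 within set 2 and 0.0054 within set 1.

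Timm44 recruits the Hspa9 (mitochondrial Hsp70) motor to the inner face of the TIM23 channel. It read 624, 579 and 832 in the 3 CKO hearts of set 2, against 1000.0 and 1173 in the 2 control hearts. Within set 1 it read 493 and 486 in CKO hearts, against 585 in the control heart. CKO hearts were thus lower within each set while the groups overlapped across sets. Timm44 fell with array set as a block (-0.53 ± 0.12 (SE) on the log2 scale, adjusted p = 0.00256, limma with array set as a block), and did not pass without it (adjusted p = 0.215). Timm50, the receptor of the complex, had no probe set with a single symbol.

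The small Tim proteins are paired chaperones that ferry hydrophobic proteins across the space between the membranes. Timm8b read 2053, 1997 and 2054 in the 3 CKO hearts of set 2, against 1485 and 1636 in the 2 control hearts. Its set 1 values were 1352 and 1268 in CKO hearts, against 987 in the control heart. All CKO hearts stood above the controls of their own set, and Timm8b rose with the block (0.39 ± 0.073 (SE) on the log2 scale, adjusted p = 0.000678, limma with array set as a block), but not without it (0.35 ± 0.24 (SE), adjusted p = 0.47). Timm13 read 2041, 1767 and 2253 in the 3 CKO hearts of set 2, against 1564 and 1547 in the 2 control hearts. In set 1, Timm13 read 1115 and 1133 in CKO hearts, against 793 in the control heart. It too was higher within both sets and rose with the block (0.41 ± 0.087 (SE) on the log2 scale, adjusted p = 0.00161, limma with array set as a block), where the test without it gave 0.35 ± 0.34 (SE) and adjusted p = 0.66. Timm8a1, the X-linked gene whose human counterpart is mutated in a deafness and dystonia syndrome, differed by -0.32 ± 0.18 (SE, adjusted p = 0.18) with the block, opposite in sign to its family members Timm8b and Timm13 and without passing.

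Timm9, which pairs with Timm10 to carry metabolite carriers, read 183, 221, 177, 129.6 and 131 in CKO hearts, against 237, 197 and 153 in control hearts. Timm22, the core of the complex that inserts those carriers, read 250, 259, 216, 243 and 341 in CKO hearts, against 266, 320.3 and 322 in control hearts. The groups overlapped for both, and neither passed with the block (adjusted p = 0.312 for Timm9 and 0.388 for Timm22, limma). With the block Timm10b, a small Tim protein of the TIM22 complex, differed by 0.13 ± 0.10 (SE, adjusted p = 0.35, limma).

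None of the 4 tested Tomm genes passed at 4 weeks (limma, with 0 at an unadjusted p under 0.05 without the block and 1 with it). Tomm20, the receptor for presequences, read 1529, 1327, 1581, 1435 and 1232 in CKO hearts, against 1250.5, 1296 and 1349 in control hearts. Tomm70a, the receptor for carriers and chaperone-bound proteins, read 1038, 996, 1188, 1183 and 1207 in CKO hearts, against 717, 1057 and 1261 in control hearts. Tomm7, a small subunit of the translocase, read 1768, 1657, 2088, 2047 and 1868 in CKO hearts, against 1492, 1864 and 1996 in control hearts. The groups overlapped for all of them, and the adjusted p with the block was 0.426 for Tomm20, 0.0905 for Tomm70a and 0.263 for Tomm7 (limma). Without the block the 4 differences lay between 0.029 (Tomm34, a cytosolic co-chaperone) and 0.18 (Tomm70a), with all 4 positive, and after quantile normalization 2 of the 4 were negative, Tomm7 among them at -0.021.

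**Figure D2:**
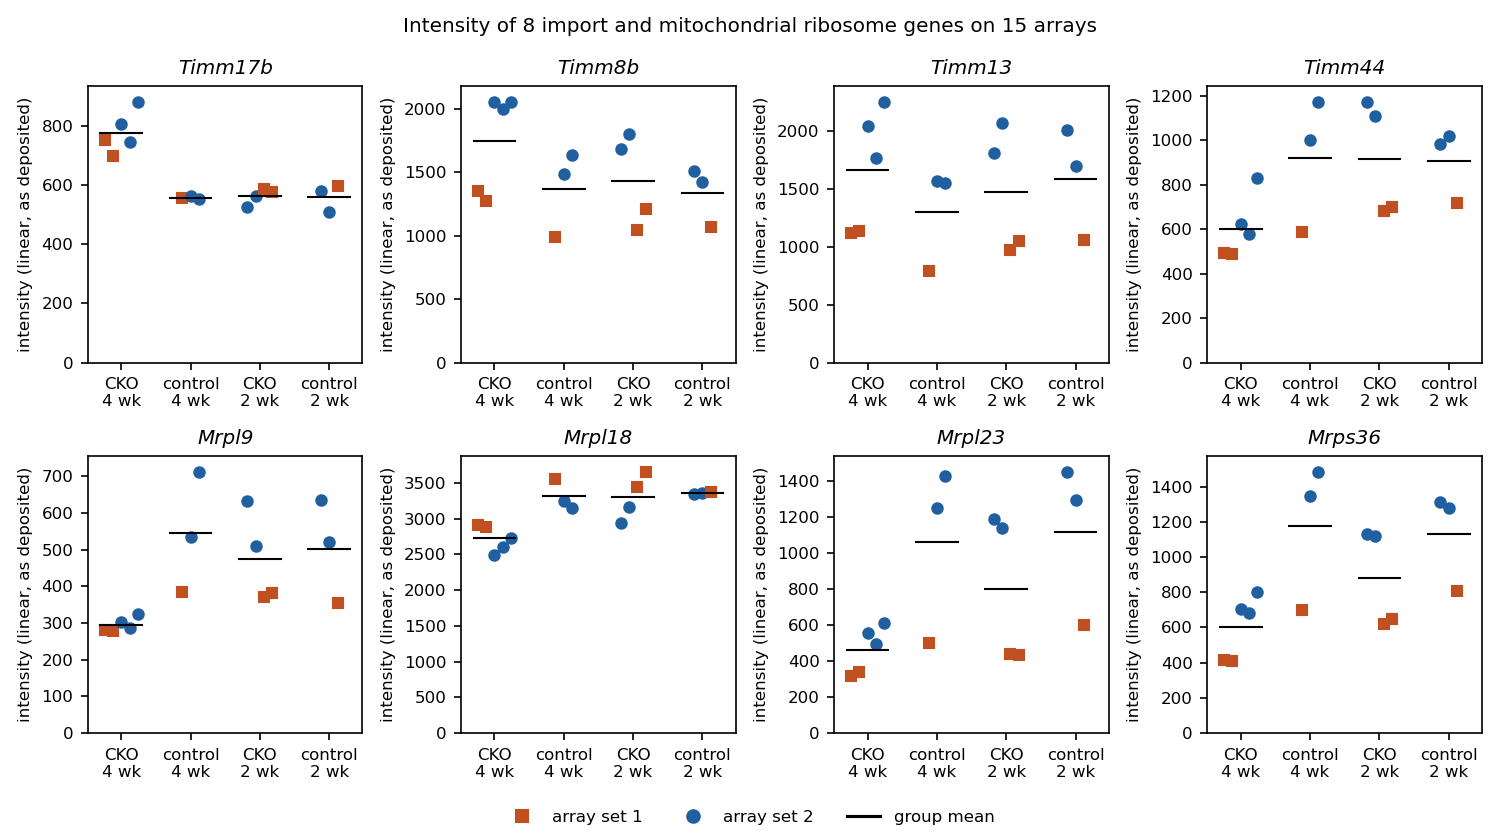
Deposited linear intensity (vertical axis, from 0) of 8 members on each of the 15 arrays, by group, with squares for array set 1, circles for array set 2 and a line at the group mean. Timm17b is higher in all 5 CKO hearts at 4 weeks than in any other group, Mrpl18 and Mrpl9 are lower in them than in control hearts at 4 weeks, and in every panel but those of Timm17b and Mrpl18 the squares of a group lie below its circles.

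Timm17b passed as higher without and with the block, Timm8b as higher only with it, and Mrpl9 and Mrpl18 as lower in both fits. Timm8b was picked from the members that rose with the block, among which Mrpl33 had a smaller adjusted p. The proximal promoters of these genes were searched for short motifs bound by factors known to act on nuclear genes for mitochondrial proteins. They run from 250 bases before to 30 bases after the transcription start in RefSeq's GRCm38.p6 annotation, at chrX:7899086-7899365 (plus strand) for Timm17b, chr9:50603651-50603930 (plus strand) for Timm8b, chr3:94443086-94443365 (plus strand) for Mrpl9 and chr17:12916062-12916341 (minus strand) for Mrpl18, each written 5′ to 3′ along the gene with matches in capitals.
Timm17b: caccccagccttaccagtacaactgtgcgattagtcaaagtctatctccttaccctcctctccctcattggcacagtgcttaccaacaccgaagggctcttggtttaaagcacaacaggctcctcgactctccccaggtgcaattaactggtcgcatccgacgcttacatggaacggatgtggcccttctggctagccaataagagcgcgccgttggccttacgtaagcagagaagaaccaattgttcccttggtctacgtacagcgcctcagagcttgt
Timm8b: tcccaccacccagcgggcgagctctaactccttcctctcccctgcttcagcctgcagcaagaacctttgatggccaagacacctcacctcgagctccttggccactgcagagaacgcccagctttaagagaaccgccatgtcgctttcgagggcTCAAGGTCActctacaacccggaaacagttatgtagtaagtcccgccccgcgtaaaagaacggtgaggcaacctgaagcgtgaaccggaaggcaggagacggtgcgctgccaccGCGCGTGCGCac
Mrpl9: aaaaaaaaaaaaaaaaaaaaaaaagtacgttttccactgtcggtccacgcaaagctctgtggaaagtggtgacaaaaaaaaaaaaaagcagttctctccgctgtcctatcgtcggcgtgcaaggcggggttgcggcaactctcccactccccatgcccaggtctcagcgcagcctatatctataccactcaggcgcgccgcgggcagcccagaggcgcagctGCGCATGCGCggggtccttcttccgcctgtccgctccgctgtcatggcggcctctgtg
Mrpl18: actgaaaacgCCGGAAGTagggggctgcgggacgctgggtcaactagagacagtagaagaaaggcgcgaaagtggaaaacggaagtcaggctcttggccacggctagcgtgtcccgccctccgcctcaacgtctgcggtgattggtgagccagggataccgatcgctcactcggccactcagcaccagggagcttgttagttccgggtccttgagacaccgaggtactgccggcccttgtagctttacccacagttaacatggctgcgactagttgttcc

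The motifs searched on both strands were that of NRF1, the ETS family site of GABPA (CCGGAAGT), the ERR site (TNAAGGTCA), YY1 (AAGATGGCG) and the E-box (CACGTG). Mrpl9 held an NRF1 match at bases -28 to -19 from the start, Mrpl18 an ETS match at -240 to -233, and Timm8b an NRF1 match read on the other strand (bases 18 to 27) and an ERR match (bases -96 to -88), while the Timm17b window held none of these letters. Windows of 300 bases were available for 70 of the 78 members and for 17492 protein-coding genes. The share holding each motif was 15.7% of members against 6.6% of all genes for NRF1, 20.0% against 5.29% for ETS, 10% against 1.94% for YY1, 11.4% against 7.9% for the E-box and 1.43% against 1.05% for ERR. The ERR match of Timm8b was the only one among the members. Matches of different motifs overlapped in 0 members. NRF1 letters stood in 3 of the 16 windows of members that fell with the block and in 1 of the 6 windows of those that rose, and ETS letters in 3 of 16 and 1 of 6. A match is a string of letters and not a measured binding site.

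Of the 37 tested large-subunit genes, 2 passed without the block, both lower (5.41%, against 11.2% of all genes), and 12 with it (32.4%, against 35.5%), 2 higher and 10 lower (5.41% and 27%, against 23.2% and 12.2%). Mrpl9, a large-subunit protein with a bacterial counterpart, read 281, 279, 302, 287 and 324 in CKO hearts at 4 weeks, against 386, 535 and 711 in control hearts. The CKO values lay close together, below every control value, and the means were 294 ± 18.8 (SD, n = 5) in CKO hearts and 544 ± 163 (SD, n = 3) in control hearts. Mrpl9 was 1.75-fold lower (-0.81 ± 0.23 (SE) on the log2 scale, adjusted p = 0.0325, limma), by -0.98 within set 2 and -0.44 within set 1. After median scaling the difference was -0.89 and no longer passed (adjusted p = 0.0797). With array set as a block it was -0.78 ± 0.14 (SE, adjusted p = 0.000409). Without the block it did not pass when control replicate 2 (-0.80, adjusted p = 0.116) or 3 (-0.60, adjusted p = 0.183) of 4 weeks, or any one of CKO replicates 1 to 4 of that age (-0.79 to -0.82, adjusted p = 0.0572 to 0.062), was left out.

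Mrpl18, the counterpart of a bacterial protein that holds the smallest ribosomal RNA, read 2908, 2888, 2498, 2599 and 2726 in CKO hearts, against 3560.5, 3244 and 3155 in control hearts. Here too every CKO heart was below every control heart. The difference was -0.28 ± 0.085 (SE) on the log2 scale, 1.22-fold (limma, adjusted p = 0.0455), and -0.29 and -0.30 within sets 2 and 1. It no longer passed after quantile normalization (adjusted p = 0.132), with dim genes kept (0.0655) or with all probe sets of a gene averaged (0.0634). Nor did it pass without any one of control replicates 1, 2 and 3 or CKO replicates 3, 4 and 5 of 4 weeks (-0.23 to -0.32, adjusted p = 0.0667 to 0.154). Leaving out any control array or CKO replicate 2 or 3 of 2 weeks kept the value and ended the call too (adjusted p = 0.0564 to 0.0644). The second probe set of Mrpl18 differed by -0.67.

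Mrpl23, which in bacteria lies at the exit of the tunnel for the growing protein, had the lowest difference of the 68 tested members at 4 weeks. It read 553, 493 and 612 in the 3 CKO hearts of set 2, against 1250.0 and 1426 in the 2 control hearts. Within set 1 the intensities were 316 and 337 in CKO hearts, against 502 in the control heart. CKO hearts lay far below controls in both sets, and Mrpl23 fell with the block (-1.01 ± 0.13 (SE) on the log2 scale, adjusted p = 3.09e-05, limma with array set as a block), while the test without it, over arrays of both sets, gave -1.08 ± 0.44 (SE) and adjusted p = 0.144. Mrpl48, a protein that bacterial ribosomes lack, read 379, 399 and 517 in the 3 CKO hearts of set 2, against 774 and 871 in the 2 control hearts. Its set 1 intensities were 212 and 212 in CKO hearts, against 333 in the control heart. Mrpl48 also fell with the block (-0.80 ± 0.12 (SE) on the log2 scale, adjusted p = 6.07e-05, limma with array set as a block), and its second probe set, of nearly the same brightness, gave -0.33 without the block where the first gave -0.88.

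Mrpl42 read 1544, 1577, 1780.2, 1790.5 and 2265 in CKO hearts, against 2077, 2298 and 2434 in control hearts, with CKO replicate 5 inside the control range, and it fell with the block (-0.34 ± 0.10 (SE) on the log2 scale, adjusted p = 0.0159, limma with array set as a block), with adjusted p = 0.0857 without it. Mrpl44, a mitochondria-specific protein whose human counterpart is mutated in a form of cardiomyopathy, read 271, 261, 209.7, 262 and 216 in CKO hearts, against 276, 283 and 384 in control hearts. The groups did not overlap, but the gap was small, and Mrpl44 passed only just with the block (-0.34 ± 0.13 (SE) on the log2 scale, adjusted p = 0.0494, limma with array set as a block) and did not pass without it (adjusted p = 0.16). The other 5 large-subunit genes that fell with the block were Mrpl58 (-0.54 ± 0.10), a peptidyl-tRNA hydrolase that frees stalled ribosomes, Mrpl27 (-0.54 ± 0.11), which in bacteria reaches the peptidyl transferase centre, Mrpl21 (-0.38 ± 0.13), Mrpl51 (-0.31 ± 0.074) and Mrpl18 (-0.29 ± 0.056, adjusted p = 0.000733). Of these 5, Mrpl18 alone passed without it. Members beyond the rule for named genes, such as these, were named after their values were seen.

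The 2 large-subunit genes that rose with the block were Mrpl33 and Mrpl13. Mrpl33 read 1796, 1968 and 2133 in the 3 CKO hearts of set 2, against 1264 and 1428 in the 2 control hearts. In set 1 arrays the same probe set read 677 and 623 in CKO hearts, against 392 in the control heart. CKO hearts were higher within both sets (0.59 ± 0.10 (SE) on the log2 scale, adjusted p = 0.000206, limma with array set as a block), and the test without the block gave 0.49 ± 0.56 (SE, adjusted p = 0.725). With the block Mrpl13 differed by 0.26 ± 0.083 (SE, adjusted p = 0.0239, limma), and without it the adjusted p was 0.823. Mrpl12, the stalk protein on which translation factors dock, read 776, 764, 1532, 1447 and 1759 in CKO hearts, against 743, 1727 and 1839 in control hearts. Its values fell into the array sets rather than the groups, and it passed neither test (adjusted p = 0.891 without and 0.414 with the block). The remaining 24 large-subunit genes did not pass with the block either, with differences from -0.45 (Mrpl55) to 0.26 (Mrpl20).

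None of the 17 tested small-subunit genes passed without the block (limma, 3 at an unadjusted p under 0.05), where 11.2% of all genes did. With it 8 passed (47.1%, against 35.5%), 6 lower and 2 higher (35.3% and 11.8%, against 12.2% and 23.2%). Mrps36, named as a ribosomal protein but also described as a subunit of the 2-oxoglutarate dehydrogenase complex, read 704, 682 and 799.8 in the 3 CKO hearts of set 2, against 1344 and 1482 in the 2 control hearts. Within set 1 Mrps36 read 412 and 408 in CKO hearts, against 700.2 in the control heart. The CKO hearts of set 2 were about at the level of the set 1 control heart, so the groups overlapped only across sets, and Mrps36 fell with the block (-0.88 ± 0.083 (SE) on the log2 scale, adjusted p = 1.15e-06, limma with array set as a block). Without it the difference was -0.93 ± 0.32 (SE, adjusted p = 0.0803).

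Mrps15 read 145, 145, 159, 143 and 208 in CKO hearts, against 181, 322 and 409 in control hearts. CKO replicate 5 stood above the other 4 and above the lowest control, and Mrps15 fell with the block (-0.76 ± 0.17 (SE) on the log2 scale, adjusted p = 0.00198, limma with array set as a block), with adjusted p = 0.0929 without it. Mrps28 read 455, 369, 560.2, 499.6 and 424 in CKO hearts, against 552, 760.4 and 730.1 in control hearts, with a single CKO value, 560.2, above the lowest control. It fell with the block (-0.52 ± 0.13 (SE) on the log2 scale, adjusted p = 0.00519, limma with array set as a block), with adjusted p = 0.127 without it. Mrps16 (-0.73 ± 0.17), whose human counterpart is mutated in a respiratory chain deficiency, Mrps31 (-0.44 ± 0.09) and Mrps21 (-0.25 ± 0.069) were the other 3 that fell with the block, with adjusted p of 0.379, 0.47 and 0.699 without it. All 3 were also lower within each set.

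Mrps7 and Mrps14, small-subunit proteins with bacterial counterparts in the head of the subunit, rose with the block. Mrps7 read 840.5, 842 and 904 in the 3 CKO hearts of set 2, against 608 and 802 in the 2 control hearts. Its set 1 readings were 359 and 332 in CKO hearts, against 231 in the control heart. The difference was 0.39 ± 0.10 (SE) on the log2 scale, adjusted p = 0.00794, limma with array set as a block (0.842 without it), with CKO replicates 3 to 5 above both control hearts of their set. Mrps14 differed by 0.30 ± 0.079 with the block (SE, adjusted p = 0.00791, limma, and 0.681 without it) and was higher within both sets. Mrps12, which lines the decoding centre, read 227, 337, 175, 336 and 255 in CKO hearts, against 243, 309 and 239 in control hearts, the groups overlapping fully (-0.0094 ± 0.20 (SE) with the block, adjusted p = 0.977). With the block the other 8 lay between -0.42 (Mrps25) and 0.18 (Mrps33) without passing. Mrps18a has 4 probe sets, which disagreed, with differences of -0.02, 0.45, 0.63 and -0.12.

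Of the 17 members that fell with the block, 13 differed less in set 1 than in set 2, and of the 7 that rose, 2 did. Within set 1, where 2 CKO hearts met 1 control heart, 7 members passed as higher and 7 as lower (10.3% and 10.3%, against 16% and 7.62% of all genes, with 23.6% of all genes passing in either direction). Within set 2, with 3 CKO hearts and 2 control hearts, 4 passed as higher and 18 as lower (5.88% and 26.5%, against 18.1% and 10.9% of all genes, with 29% passing in either direction). The members' median difference was 0.02 within set 1 and -0.18 within set 2. The single control heart of set 1 is assumed in that fit to vary like the other groups. By Xist against Uty, the set 1 hearts of 4 weeks were all female. In set 2, CKO replicates 3 and 4 of that age were female, and CKO replicate 5 and the 2 control hearts male. Sex and genotype thus partly coincided within set 2 at 4 weeks. With array set and sex as blocks the members' median difference was -0.10, against 0.06 over all genes. The part of sex in the difference between the sets was not tested.

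**Figure D3:**
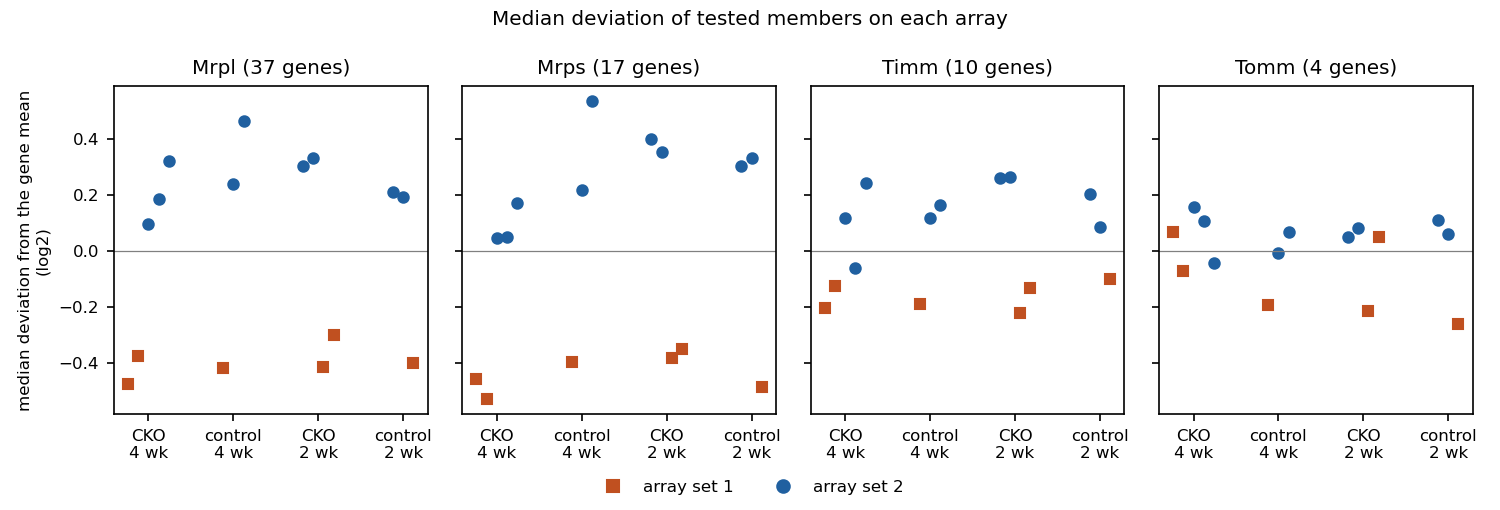
Median over the tested members of each family of the deviation from the gene's mean over all arrays (log2, vertical axis), on each array, by group, with squares for array set 1 and circles for array set 2. For Mrpl and Mrps the sets lie further apart than the groups, for Timm less so, and for the 4 Tomm genes the sets overlap.

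The 10 members left out as dim were Mrpl14, Mrpl17, Mrpl49, Mrps2, Mrps5, Mrps10, Mrps26, Timm8a2, Timm10 and Tomm40. Tomm40, the channel of the outer membrane, read 85.1, 95.3, 172, 218 and 274 in CKO hearts at 4 weeks, against 96.1, 223 and 229 in control hearts, and Timm10 read 69.8, 72.6, 106, 89.0 and 103 in CKO hearts, against 84.8, 100.4 and 128. Both overlapped. Mrps26 lay at 110.3 to 144 in CKO hearts, against 152 to 238 in control hearts, without overlap. When dim genes were kept in, none of the 10 passed without the block, and with it Mrps2 did (-0.51 ± 0.14 (SE), adjusted p = 0.0136). Mrps5 was at the floor of 0.95 on 4 of 5 CKO arrays and 2 of 3 control arrays at 4 weeks and read 604 on the third, so it gives no level. Tomm22 had no probe set with a single symbol, and 7 probe sets that list a member beside another gene were not used.

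The genes that work beside the members were described by lists chosen with earlier results of these data known. Over all genes, 6.59% passed as higher and 4.61% as lower without the block, and 23.2% and 12.2% with it. Of 5 tested translation factors, 3 passed without the block, all lower: Mtrf1l, a release factor (-1.34 ± 0.27 (SE), adjusted p = 0.00519), Mtif2, the initiation factor that brings the first tRNA (-1.05 ± 0.23, adjusted p = 0.00861), and Gfm1, an elongation factor (-0.48 ± 0.15, adjusted p = 0.0481, limma). With the block the adjusted p of these 3 was 0.000606, 0.000557 and 0.00651. The list's median was -0.49 without the block, and all 5 were negative. Of the 2 tested ribosomal proteins under other symbols, Ptcd3 differed by -0.98 ± 0.31 (SE, adjusted p = 0.0564 without and 4.67e-05 with the block) and Dap3 by 0.15 ± 0.36. Of 7 genes for mitochondrial DNA and its transcription, 1 passed without the block, Lrpprc, which stabilises mitochondrial messenger RNA (-0.76 ± 0.14 (SE), adjusted p = 0.00227 without and 9.13e-05 with the block). With the block Tfb2m passed too (-0.49 ± 0.13 (SE), adjusted p = 0.00727, limma with array set as a block).

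Of 15 partners of import and folding, 1 passed without the block, the chaperonin Hspd1 (-0.71 ± 0.12 (SE), adjusted p = 0.00172 without and 3.97e-05 with the block). With the block 6 did, 2 higher and 4 lower, where 35.5% of all genes passed, 23.2% higher and 12.2% lower. None of the 4 tested aminoacyl-tRNA synthetases and none of the 6 mitochondrial proteases passed without the block (limma, with 0 and 0 of them at an unadjusted p under 0.05), and with it 1 synthetase was higher and 1 protease lower. The smallest p belonged to Gars among the synthetases (0.55 ± 0.37 (SE), adjusted p = 0.454 without and 0.00123 with the block) and to Clpp among the proteases (-0.64 ± 0.38 (SE), adjusted p = 0.365 without and 0.00029 with the block).

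The respiratory chain and ATP synthase subunits, which the mitochondrial ribosome and the import machinery supply, were set beside the members. Of 60 tested, 15 were lower and 0 higher without the block (25.0% lower, against 2.94% of the members and 4.61% of all genes), and 43 lower and 2 higher with it (71.7% lower, against 25.0% and 12.2%). Their median difference was -0.29, against -0.13 for the members. Their median difference by array set was -0.17, against -0.56 for the members. Of the 26 tested cytosolic ribosomal proteins, 2 were higher and 0 lower without the block, where 6.59% and 4.61% of all genes were. With it 9 were higher and 0 lower, where 23.2% and 12.2% of all genes were. Their median was 0.13, and their median difference by array set was -0.50. The difference between these lists was not tested.

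At 2 weeks, 0 of the 68 members passed, without the block or with it, where 1 of all genes did without it (0.0202%) and 4 with it (0.0808%, limma). At an unadjusted p under 0.05, which chance alone gives at a rate of 0.05, there were 0 members without and 5 with the block. Timm17b read 526, 562, 587 and 575 in CKO hearts, against 579, 508 and 597 in control hearts. Mrpl9 read 632, 509, 371 and 382 in CKO hearts, against 634, 519.7 and 354 in control hearts, and Mrpl18 2939, 3166, 3441 and 3651 in CKO hearts, against 3348, 3355 and 3374. The groups overlapped for all of these, and the differences with the block were 0.0062 ± 0.10, -0.0029 ± 0.15 and -0.054 ± 0.059 (SE).

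Among the 68 tested members Mrpl48 had the lowest difference at 2 weeks (-0.52 ± 0.12 (SE) with the block, adjusted p = 0.19). It read 629 and 689 in the 2 CKO hearts of set 2 at that age, against 889 and 852 in control hearts, and 269 and 250 in those of set 1, against 429. CKO hearts were lower in both sets on this probe set, without the difference passing, and the second probe set of Mrpl48 differed by -0.014 at 2 weeks without the block, where this one differed by -0.71. Of the 17 members that fell at 4 weeks with the block, 11 were negative at 2 weeks, with a median of -0.08, and of the 7 that rose, 7 were positive, with a median of 0.11, where 44 of all 68 members were positive with a median of 0.067. The medians at 4 weeks were -0.53 and 0.39.

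Whether the CKO difference itself changed with age was tested as an interaction. None of the 68 passed without the block (limma, 3 at an unadjusted p under 0.05), where 1.56% of all genes did. With it 9 did (13.2% of members, against 12.4% of all genes), 3 more positive and 6 more negative at 4 weeks (7.17% and 5.27% of all genes). The share is near that of all genes. The change was 0.58 ± 0.14 (SE, adjusted p = 0.0137) for Mrpl33, 0.46 ± 0.13 (0.0356) for Timm17b and 0.40 ± 0.13 (0.0499) for Timm13. It was -0.63 ± 0.12 (0.00299) for Mrps36, -0.89 ± 0.24 (0.0233) for Mrps15, -0.78 ± 0.20 (0.02) for Mrpl9, -0.66 ± 0.19 (0.0364) for Mrpl23, -0.61 ± 0.17 (0.0289) for Timm44 and -0.61 ± 0.18 (0.0414) for Mrpl44. With inferred sex as a second block 4 passed. Leaving out single arrays gave 2 to 9 passing members: 2 without control replicate 3 of either age, 4 without control replicate 1 of 2 weeks, and 5 without control replicate 2 or CKO replicate 3 of 4 weeks or CKO replicate 1 of 2 weeks.

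**Figure D4:**
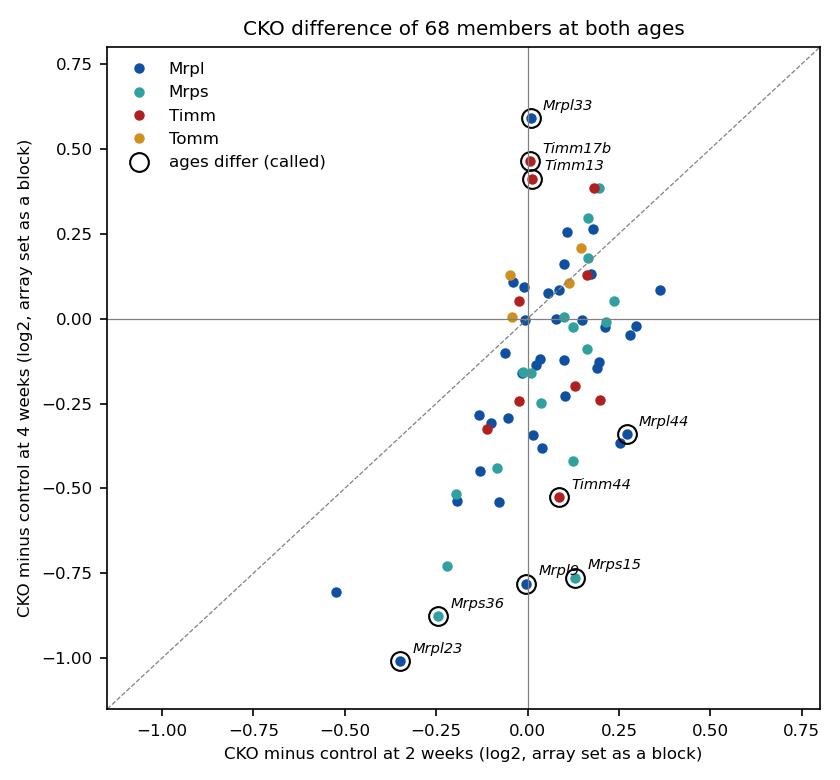
Difference between CKO and control hearts with array set as a block, in log2(intensity + 16), at 2 weeks (horizontal axis) and 4 weeks (vertical axis) for the 68 tested members, coloured by family, with a dashed line where both are equal. Black circles mark the 9 members whose difference changed with age, of which Mrpl33, Timm17b and Timm13 lie above the line and 6 below it.

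In control hearts, 0 members passed between 4 and 2 weeks of age without or with the block (limma), where 0.727% and 5.92% of all genes did. At an unadjusted p under 0.05, which chance alone gives at a rate of 0.05, there were 0 members without and 5 with the block in that comparison. In CKO hearts, 1 of 68 passed without the block, Timm17b, which was higher at 4 weeks by 0.45 ± 0.11 (SE, adjusted p = 0.0211), where 6.57% of all genes passed. The 5 values at 4 weeks, 698 to 883, lay above the 4 at 2 weeks, 526 to 587. The call was lost after median scaling, where it was 0.46 (adjusted p = 0.0832), within set 1 (0.31, adjusted p = 0.05), and when CKO replicate 3 of 4 weeks (0.44, adjusted p = 0.0548) or CKO replicate 1, 2 or 4 of 2 weeks (0.42 to 0.46, adjusted p = 0.0518 to 0.0591) was left out. With the block 21 members passed (30.9%, against 25.1% of all genes), 5 higher and 16 lower at 4 weeks (7.35% and 23.5%, against 14.3% and 10.8%). Mrps36 (-0.62 ± 0.077 (SE), adjusted p = 2.82e-05) had the smallest p, and Mrpl33 (0.54 ± 0.09, adjusted p = 0.000351) the smallest among those higher at 4 weeks. The comparison in CKO hearts shares its 4-week arrays with the comparison of CKO and control hearts at that age.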

How the data were processed

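Whole-heart total RNA was measured on 15 one-colour arrays of 12422 probe sets. The authors deposited a linear intensity for every probe set of an array, with a floor of 0.95 (81 to 191 probe sets an array). Their software, background correction and scaling: not given in the sources used here. Gene names came from the platform annotation: 10833 probe sets had 1 symbol, of which 10817 were found by gene ID, 396 had several and 1193 none. Values were used as log2(intensity + 16) with the deposited scaling, since the highest array median was 1.248 times the lowest. Each gene was the probe set with the highest mean. One limma fit (limma 3.58.1, R 4.3.3, lmFit and eBayes) over the 4 groups gave 5 comparisons, with Benjamini-Hochberg adjustment over 4950 genes. The fit was tested on simulated data. Alternatives were quantile normalization, median scaling, other pseudocounts (1 and 64), no filter, averaged probe sets, array set, sex and replicate blocks, fits within a set, and each array left out. The number of arrays limits the precision. The members, lists and rules were chosen with earlier results of these data known. Named members were those that passed, the 3 with the smallest p per family, a list of core genes, up to 4 per direction with the block, and the dim ones, and of each companion list up to 4 that passed or else the smallest p. Slirp, which is no ribosomal protein, was taken out of a list after its values were seen.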

Additional observations from a re-analysis of the deposited data

Results flagged for a closer look

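Among 46 combinations of a named member and a group of 4 or more arrays, 1 array stood apart from the others of its group by Dixon's criterion, a rate at or below the share of about 1 in 20 that chance gives. Mrps15 read 208 on CKO replicate 5 at 4 weeks, where the others of that group ran from 143 upward with a group median of 145, and the gap was 0.753 of the group's range. With array set as a block, the difference between CKO and control hearts changed between the ages for 9 members, by a test of the change itself (limma, 4 weeks minus 2 weeks): Mrps36 (-0.63, adjusted p = 0.00299), Mrpl33 (0.58, 0.0137), Mrpl9 (-0.78, 0.02), Mrps15 (-0.89, 0.0233), Timm44 (-0.61, 0.0289), Timm17b (0.46, 0.0356), Mrpl23 (-0.66, 0.0364), Mrpl44 (-0.61, 0.0414) and Timm13 (0.40, 0.0499). None of the 9 passed without the block.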

How the results depend on the processing

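Members that passed at 4 weeks (3 without the block) numbered 1 after median scaling, 24 with array set as a block, 28 with that block and quantile normalization, 14 within set 1, 22 within set 2 and 22 with set and sex as blocks. Leaving out 1 array gave 0 to 5, and 0 without control replicate 2 or 3 of 4 weeks. With the set block this was 21 to 25, a repeat chosen after seeing the data, as were those below. The change with age (0) gave 9, 12, 1, 6 and 4 with the set block, the block and quantile normalization, within set 1, within set 2, and with set and sex, and 2 to 9 with the block and 1 array left out. The CKO age comparison (1) gave 0 after median scaling, then 21, 25, 12, 13 and 18, with 0 to 1 when 1 array was left out and 17 to 23 with the block. The control age comparison (0) gave 1 with the block and quantile normalization, and 2 weeks gave 0 throughout. The share of all genes that passed also moved with the setting. With the block it went from 11.2% to 35.5% at 4 weeks, from 1.56% to 12.4% for the change with age and from 6.57% to 25.1% for the CKO age comparison. The counts in this paragraph therefore do not by themselves set the members apart from other genes.

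Within set 1, 20 of the 68 members had another sign at 4 weeks than without the block, Mrpl16 furthest (0.59, against -0.093 without the block), then Mrps17 (0.26, against -0.013), Mrps12 (0.18, against -0.017) and Mrpl45 (0.14, against -0.42). With the block 2 did, within set 2 1. Among named members the sign also changed for Timm17a (-0.072 quantile, -0.055 median scaling, -0.062 block and quantile), Tomm7 (-0.021 quantile, -0.014 block and quantile), and within set 1 for Mrpl12 (0.049) and Timm23 (0.0054). With 1 array left out the ranges were -0.58 to 0.060 for Mrpl12, -0.088 to 0.82 for Mrpl33, -0.11 to 0.11 for Mrps12, -0.093 to 0.099 for Timm17a, -0.038 to 0.17 for Tomm7 and -0.045 to 0.36 for Tomm70a. The cause was not tested.

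Replicate numbers did not pair the arrays: 12 of 19 same-numbered pairs had deviations correlated below 0 (-0.819 to 0.889), and 6 of 15 arrays matched their own number best. With the number as a block 1 member passed at 4 weeks, none of the 3 reported (Timm17b, Mrpl9 and Mrpl18), and 0 in the CKO age comparison, and Timm17a turned to -0.0094.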
